A study of Mus musculus with 6 samples.

Results

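Annexins, which bind lipids, and galectins, which bind sugars, were followed in tumor-associated macrophages (TAMs) through 10 genes: the annexins Anxa1, Anxa2, Anxa3, Anxa4, Anxa5 and Anxa7, the galectins Lgals1, Lgals3 and Lgals8, and Lgals3bp, a secreted glycoprotein that galectins bind. They were chosen by name and make up 10 of the 39179 genes in the count table. Gene expression was measured by 3′ mRNA sequencing in 6 TAM libraries. In 3 of them (Ptgs-competent, Ptgs+/+), the macrophages came from tumors of a melanoma cell line driven by mutant Braf with intact Ptgs1 and Ptgs2, the genes of the cyclooxygenases COX-1 and COX-2. In the other 3 (Ptgs-deficient, Ptgs-/-), the same tumor line had lost both genes by CRISPR/Cas9 editing. Hosts were C57BL/6 mice, 8 weeks old, and the tumor cells alone carried the deletion, so the macrophages had the host genotype in both groups. Each library came from a pool of tumors and from live CD45+ CD11b+ F4/80+ cells sorted as negative for NK1.1 and Ly6G and negative or dim for Ly6C. Whether the deficient tumor line was a single clone is not given in the sources used here. The comparison asks how the absence of tumor cyclooxygenases bore on the macrophage transcripts.

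Annexins bind negatively charged phospholipids, above all phosphatidylserine, when calcium rises, and take part in membrane repair, vesicle traffic and the handling of dying cells. Galectins bind beta-galactosides on glycoproteins, outside the cell as cross-linkers of receptors and inside it as sensors of damaged lysosomes and phagosomes. Macrophages are a rich source of galectin-3, and annexin A1 is known as a glucocorticoid-induced protein that restrains inflammation through formyl peptide receptors.

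Total counts ran from 4431184 to 8760679 per library, and 8793 genes passed the filter on low counts. Correlations of log2 CPM (counts scaled to library size) between libraries of the same group lay between 0.48 and 0.55 for the Ptgs-competent group and between 0.60 and 0.72 for the Ptgs-deficient group. The third Ptgs-competent library stood apart. It held 231 CPM of Csf1r, the receptor for macrophage colony-stimulating factor, where the other Ptgs-competent libraries held 1379 and 1559, and 26.5 CPM of the lysosomal marker Cd68, where they held 510 and 405. The summed level of 12 macrophage identity markers reached 16889, 18090 and 6551 CPM in Ptgs-competent and 21833, 21708 and 25724 CPM in Ptgs-deficient TAMs. Of 17 melanoma and tumor cell markers, 11 were at 0 in every library, among them Mlana, Pmel, Tyr, Dct and Sox10, while the summed level of the list was 526, 1301 and 2305 CPM in Ptgs-competent and 251, 116 and 139 CPM in Ptgs-deficient TAMs. That sum was carried by Sparc, Cald1, Tpm1, Fermt2 and Serpinh1, which other stromal cells also express, while Mitf, the only pigment cell regulator of the list with counts, was at 1.91, 0 and 0.647 CPM against 10.6, 44.3 and 18.2 CPM. Of 12 fibroblast markers 2 were at 0 throughout, and their sum was 157, 212 and 350 CPM against 20.1, 55.6 and 28.3 CPM. Of 13 neutrophil markers, 3 (Ly6g, Mpo and Elane) were at 0 throughout, and the list summed to 628, 757 and 624 CPM against 532, 473 and 457 CPM. Within this list Retnlg went the other way from the sum, and was at 20.2, 59.9 and 16.2 CPM against 123, 114 and 180 CPM. Single genes of these marker lists were named after their values were seen. The sums of the platelet list, carried by Pf4 and Ppbp with 9 of its 13 markers at 0, were 11832, 9847 and 5945 CPM against 2889, 2619 and 3249 CPM. The groups were also separated by the sums of less abundant lists, for 13 NK and T cell markers, at 1.75, 2.13 and 1.51 CPM against 31.6, 33.1 and 16.6 CPM, for 7 endothelial markers, at 104, 197 and 92.9 CPM against 71.9, 37.3 and 39.9 CPM, and for 8 conventional dendritic cell markers, at 14.5, 15.8 and 42.7 CPM against 0.365, 8.34 and 1.45 CPM. The 6 B cell markers, at 7.33, 26.8 and 0 CPM against 15.0, 31.1 and 106 CPM, overlapped. The part of these differences in the values that follow was not tested, and values without the third Ptgs-competent library stand beside many of the results. In such sorted bulk samples, fewer cells of a type and less RNA per cell cannot be told apart.

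All 10 members passed the filter, and none was called different between the groups. Calls required both an adjusted p no higher than 0.05 in edgeR's quasi-likelihood test and a log2 fold change whose size was at least 1.5, and 19 of the 8793 genes met this rule (0.216%). Among the members 5 had a higher and 5 a lower fitted level in Ptgs-deficient TAMs, and their median log2 fold change was 0.33, beside 0.018 over all genes tested. Lgals3bp alone had an unadjusted p under 0.05, as had 776 of all genes tested (8.83%). The levels of Lgals3bp and Lgals8 were higher in every Ptgs-deficient library than in any Ptgs-competent one, which makes 2 of 10 members, and 970 of all genes tested (11%) were ordered that way. No member was lower in every Ptgs-deficient library, an order that 704 genes tested (8.01%) showed. Summed over the members, the level was 6592, 6170 and 8124 CPM in Ptgs-competent and 5555, 7254 and 7431 CPM in Ptgs-deficient libraries, so that the groups overlapped.

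**Figure D1:**
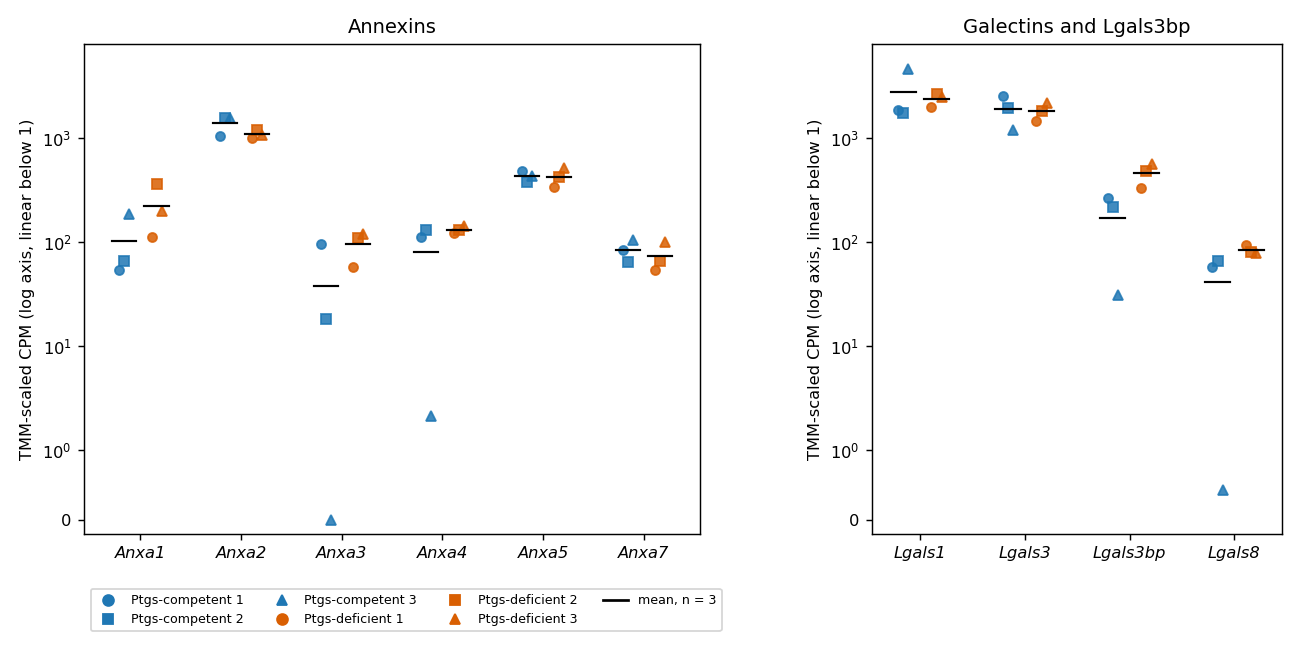
Level of each member in each library, as CPM scaled by the trimmed mean of M-values (TMM), on a log axis that is linear below 1. Points are libraries, with a symbol for each replicate number, and bars are means of 3. The third Ptgs-competent library is the lowest of the 6 for Anxa3, Anxa4, Lgals3, Lgals3bp and Lgals8 and the highest for Lgals1 and Anxa7.

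Lgals3bp (chr11:118392751-118402092, minus strand, GRCm38) encodes a secreted, heavily glycosylated scavenger receptor family protein that binds galectin-3 and galectin-1. Ptgs-competent TAMs held 264, 217 and 31.0 CPM and Ptgs-deficient TAMs 332, 479 and 562 CPM. Every Ptgs-deficient library lay above every Ptgs-competent library, and the lowest value was that of the third Ptgs-competent library. The mean was 171 ± 123 CPM (SD, n = 3) in Ptgs-competent and 458 ± 116 CPM (SD, n = 3) in Ptgs-deficient TAMs, with a log2 fold change of 1.42 (SE 0.635, 95% interval 0.0055 to 2.83). By edgeR's quasi-likelihood test its unadjusted p was 0.0493 and its adjusted p was 0.563. Without the third Ptgs-competent library the log2 fold change was 0.97, the unadjusted p was 0.0192 and the adjusted p was 0.421, and leaving out another library gave log2 fold changes of up to 1.88.

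Lgals8 (chr13:12439415-12464944, minus strand, GRCm38) encodes galectin-8, which has a pair of sugar-binding domains and marks damaged vesicles for autophagy. It was read at 58.2, 65.2 and 0.431 CPM in Ptgs-competent and at 94.5, 81.2 and 78.8 CPM in Ptgs-deficient libraries. The groups did not overlap, and the third Ptgs-competent library, with 2 counts, was under the floor of 3 counts used here. The means were 41.3 ± 35.5 and 84.9 ± 8.45 CPM (SD, n = 3 each), and the log2 fold change was 1.04 (SE 1.16, 95% interval -1.54 to 3.62, adjusted p = 0.9995 in edgeR's test). It was 0.51 without that library, the lowest value on leaving out any of the 6, and at most 1.53. Lgals8 overlaps Heatr1 on the opposite strand, a ribosome biogenesis gene with 168, 152 and 154 counts in Ptgs-competent and 0, 8 and 13 counts in Ptgs-deficient libraries. Whether the counting used strand is not given in the sources used here, and without strand the reads of such a pair cannot be told apart where the genes overlap. No other member overlapped a gene with counts.

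The promoters of the 2 members with groups that did not overlap are shown because their levels were ordered alike. Each window runs from 250 bases before a transcript start to 50 bases after it, 5′ to 3′ on the strand of the gene, from RefSeq (GRCm38.p6). The Lgals3bp window is chr11:118401910-118402209 and the Lgals8 window chr13:12461689-12461988, both on the minus strand. The Lgals8 window lies around a start inside the annotated gene, whose outermost end is at 12464944.
Lgals3bp: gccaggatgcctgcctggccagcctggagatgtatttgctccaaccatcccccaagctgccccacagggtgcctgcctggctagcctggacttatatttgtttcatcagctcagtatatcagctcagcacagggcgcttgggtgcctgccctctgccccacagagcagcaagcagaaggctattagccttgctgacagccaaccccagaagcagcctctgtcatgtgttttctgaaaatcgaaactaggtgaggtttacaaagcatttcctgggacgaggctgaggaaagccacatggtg
Lgals8: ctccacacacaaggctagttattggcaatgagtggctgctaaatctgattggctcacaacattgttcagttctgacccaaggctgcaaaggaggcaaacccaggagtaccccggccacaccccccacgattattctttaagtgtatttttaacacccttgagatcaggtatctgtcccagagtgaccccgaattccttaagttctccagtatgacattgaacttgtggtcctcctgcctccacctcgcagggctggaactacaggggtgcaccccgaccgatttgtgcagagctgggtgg
Windows were searched on both strands for the interferon response element core GAAANNGAA, the gamma-activated site TTCNNNGAA, the cyclic AMP response element TGACGTCA, the AP-1 site TGANTCA, the glucocorticoid receptor half-site AGAACA, the GC box GGGCGG and the TATA box TATAAA. Of 32851 RefSeq promoter windows of 300 bases, these letters were held by 8.56%, 8.3%, 1.79%, 7.81%, 19%, 35.7% and 13.6%, in that order. None of the 7 was found in these 2 windows, which says only that the letters are not there.

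Lgals1 (chr15:78926725-78930465, plus strand) encodes galectin-1, a small homodimeric lectin known for dampening T cell responses. It was the most abundant member, ranking 41 among all genes by mean CPM. Its level was 1861, 1723 and 4634 CPM in Ptgs-competent and 1987, 2620 and 2472 CPM in Ptgs-deficient TAMs. The third Ptgs-competent library was above all others, and the remaining Ptgs-competent libraries were below all Ptgs-deficient ones. The log2 fold change was -0.22 (SE 0.410, 95% interval -1.13 to 0.70) with all libraries and 0.45 without the third Ptgs-competent one, so its direction turned on that library. Its adjusted p was 0.9995 with all 6 libraries and 0.660 without the third Ptgs-competent one (edgeR quasi-likelihood test).

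Lgals3 (chr14:47367751-47386160, plus strand) encodes galectin-3, a chimeric galectin that forms oligomers and is a common macrophage marker. Ptgs-competent libraries held 2521, 1945 and 1188 CPM, and Ptgs-deficient libraries held 1464, 1809 and 2165 CPM. The ranges overlapped, with the Ptgs-deficient libraries inside the Ptgs-competent range. Means of 1884 ± 668 and 1813 ± 350 CPM (SD, n = 3 each) gave a log2 fold change of -0.06 (SE 0.346, 95% interval -0.83 to 0.71). It was the member ranked next by level, at 61 of all genes. On this 3′ tag scale, where a read stands for about a transcript whatever its length, the levels of Lgals1 and Lgals3 overlapped in both groups. By mean level over the libraries they were followed by Anxa2, Anxa5, Lgals3bp, Anxa1, Anxa4, Anxa7, Anxa3 and, at rank 2461, Lgals8, and every library of either group held more Anxa2 than any library of that group held of Anxa5. Of the other neighbours in this order, Lgals3bp and Anxa1, Anxa1 and Anxa4, Anxa7 and Anxa3, and Anxa3 and Lgals8 overlapped in both groups.

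Within a library, the counts of Lgals1 were 0.738, 0.886 and 3.9 times those of Lgals3 in the Ptgs-competent group and 1.36, 1.45 and 1.14 times in the Ptgs-deficient group. Lgals1 was thus the lower of the pair in 2 Ptgs-competent libraries and the higher in the other 4 libraries. The groups' mean log2 ratios, 0.45 and 0.39, differed by -0.062 (exact permutation test, two-sided p = 1). Without the third Ptgs-competent library the difference was 0.69 (exact permutation p = 0.1), and without the third Ptgs-deficient library it was 0.037. The smallest p that these numbers of libraries allow is 0.1.

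**Figure D2:**
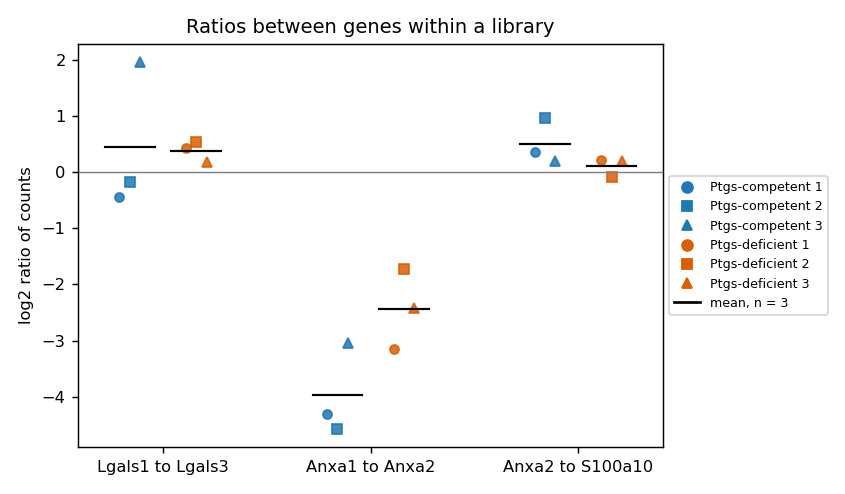
Log2 ratio of counts between genes of the same library, for Lgals1 to Lgals3, Anxa1 to Anxa2 and Anxa2 to S100a10. Points are libraries and bars are means of 3. The ratio of Lgals1 to Lgals3 reaches 1.96 on the log2 scale in the third Ptgs-competent library and lies between -0.44 and 0.53 in the other 5.

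Anxa1 (chr19:20373428-20390944, minus strand) encodes annexin A1, the formyl peptide receptor ligand. Levels of 53.4, 65.8 and 188 CPM were measured in Ptgs-competent and of 113, 358 and 201 CPM in Ptgs-deficient libraries. All Ptgs-deficient libraries were above the first and second Ptgs-competent ones, while the third fell inside the Ptgs-deficient range. The mean was 102 ± 74.4 CPM against 224 ± 125 CPM (SD, n = 3 each), and the log2 fold change was 1.13 (SE 0.597, 95% interval -0.20 to 2.46). In edgeR's quasi-likelihood test the unadjusted p was 0.0877 and the adjusted p was 0.744. The log2 fold change was 1.96 without the third Ptgs-competent library, with an unadjusted p of 0.00553 and an adjusted p of 0.264, and 0.62 without the second Ptgs-deficient library, with an unadjusted p of 0.387. Anxa1 was called in neither case.

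Anxa2 (chr9:69453620-69491795, plus strand) encodes annexin A2, which pairs with S100A10 at the plasma membrane as a plasminogen receptor. It was the most abundant annexin, at rank 109 of all genes. It was measured at 1055, 1564 and 1544 CPM in Ptgs-competent and at 994, 1184 and 1075 CPM in Ptgs-deficient TAMs. The Ptgs-deficient values lay in a narrow band at the low end of the Ptgs-competent range, which they overlapped through the first library. The mean of 1388 ± 288 CPM against 1085 ± 95.3 CPM (SD, n = 3 each) gave a log2 fold change of -0.36 (SE 0.292, 95% interval -1.01 to 0.29, adjusted p = 0.9995 in edgeR's test). Its direction was the same under all 15 alternatives.

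The promoters of Anxa1 and Anxa2 are given because the levels of these genes are set against each other within a library. Capitals mark the matches. The Anxa1 window (chr19:20390622-20390921, minus strand, GRCm38.p6) had a TATA box starting 32 bases before the start site. The Anxa2 window (chr9:69453433-69453732, plus strand, GRCm38.p6) had a TATA box starting 17 bases before it, an AP-1 site at 95 bases and GC boxes at 190, 48 and 24 bases, none of which overlapped another.
Anxa1: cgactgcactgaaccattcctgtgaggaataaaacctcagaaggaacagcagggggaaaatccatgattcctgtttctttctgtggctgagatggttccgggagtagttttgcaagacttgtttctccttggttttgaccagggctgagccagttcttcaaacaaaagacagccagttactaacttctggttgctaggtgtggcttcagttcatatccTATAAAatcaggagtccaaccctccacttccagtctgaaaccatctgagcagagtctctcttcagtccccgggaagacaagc
Anxa2: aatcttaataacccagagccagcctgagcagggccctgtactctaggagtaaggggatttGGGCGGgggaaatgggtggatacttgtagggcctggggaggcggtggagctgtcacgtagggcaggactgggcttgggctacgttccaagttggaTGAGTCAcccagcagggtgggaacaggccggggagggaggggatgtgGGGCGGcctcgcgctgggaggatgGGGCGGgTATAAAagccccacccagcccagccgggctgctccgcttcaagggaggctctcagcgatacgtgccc
RefSeq windows were found for 8 of the 10 members. No interferon response element core, gamma-activated site or cyclic AMP response element as spelled above was in any of their 10 windows. Anxa1, whose protein is known as glucocorticoid-induced, had no glucocorticoid receptor half-site in its window, while an Anxa4 window had 2. A match or its absence over 300 bases is a description of the letters only.

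Counts of Anxa1 were 0.0506, 0.0421 and 0.122 times those of Anxa2 in Ptgs-competent libraries and 0.113, 0.303 and 0.187 times in Ptgs-deficient libraries. The groups overlapped, since the third Ptgs-competent ratio was above the lowest Ptgs-deficient one. The mean log2 ratio was higher by 1.54 in Ptgs-deficient TAMs (exact permutation test, two-sided p = 0.2), and by 2.01 without the third Ptgs-competent library (exact permutation p = 0.1, the smallest possible). For Anxa2 against S100a10, its binding partner, the ratio was 1.29, 1.95 and 1.15 in Ptgs-competent and 1.16, 0.946 and 1.16 in Ptgs-deficient libraries, a difference of -0.40 on the log2 scale (exact permutation p = 0.3).

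Anxa5 (chr3:36448923-36475894, minus strand) encodes annexin A5, whose binding to phosphatidylserine is used to stain dying cells. Its level was 487, 378 and 432 CPM against 335, 418 and 515 CPM. It was the steadiest member in Ptgs-competent TAMs, with a coefficient of variation of 12.6%, and its 95% interval for the log2 fold change ran from -0.73 to 0.67 around -0.03. Anxa7 (chr14:20455260-20480133, minus strand), which encodes synexin, an annexin of secretory granule fusion, was at 83.5, 64.3 and 105 CPM against 53.8, 65.6 and 101 CPM. Its log2 fold change was -0.19 (SE 0.557, 95% interval -1.43 to 1.05), and the groups overlapped along most of their range. Both turned to slightly above 0 without the third Ptgs-competent library, at 0.013 for Anxa5 and 0.038 for Anxa7.

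Anxa3 (chr5:96793339-96845966, plus strand) encodes annexin A3, which is known from neutrophil granules as well as from macrophages. Its counts were 604, 112 and 0 in the Ptgs-competent libraries, or 96.3, 18.4 and 0 CPM. In the Ptgs-deficient libraries it held 318, 913 and 580 counts, or 58.0, 109 and 120 CPM. It was the most variable member in Ptgs-competent TAMs, with a coefficient of variation of 134%, and had one of 34.5% in Ptgs-deficient TAMs, where Anxa1 varied most at 55.6%. The groups overlapped. For the library at 0, a count of 0 allows a level of up to 0.647 CPM, with counting error as the sole error covered. The log2 fold change was 1.32 with an SE of 1.4, and it ran from 0.77 without the third Ptgs-competent library to 3.37 without the first, none of these values being called.

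Anxa4 (chr6:86736840-86793584, minus strand) encodes annexin A4, a membrane-ordering annexin of secretory cells. It was at 112, 129 and 2.16 CPM against 123, 131 and 142 CPM. Of the 6 libraries, 5 lay within that narrow range of 112 to 142 CPM and the third Ptgs-competent library, at 10 counts, stood far below. The log2 fold change was 0.70 (SE 0.974) with all libraries, and leaving out a library gave from 0.18, without the third Ptgs-competent one, to 1.21.

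**Figure D3:**
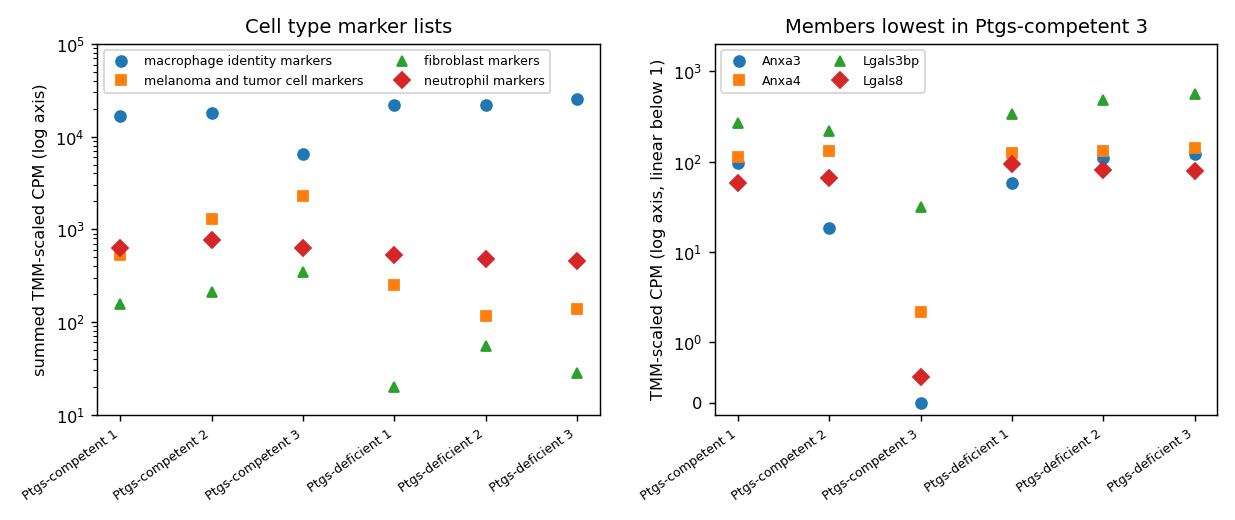
Left, summed CPM of marker lists in each library (log axis). Right, CPM of Anxa3, Anxa4, Lgals3bp and Lgals8 (log axis, linear below 1). In the third Ptgs-competent library the macrophage sum is 6551 CPM, the lowest of the 6, the tumor marker sum is 2305 CPM, the highest, and all 4 genes are at their lowest.

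With all libraries, variation within a group was wider in Ptgs-competent TAMs for 8 of the 10 members, all but Anxa5 and Anxa7, and this rested on the third Ptgs-competent library. The median coefficient of variation over the members was 66.1% in the Ptgs-competent and 20.3% in the Ptgs-deficient group. Without the third Ptgs-competent library, an alternative chosen after seeing the data, the Ptgs-competent median was 16.3% and 3 of 10 members varied more in that group. Over all genes tested the medians were 81.4% and 55.9%, and 62.3% in Ptgs-competent TAMs without that library. The 2460 genes tested at or above the level of the lowest member had 43.2% and 28.6%, and 29.3% in Ptgs-competent TAMs without it. In the Ptgs-deficient group the median over the members was 9.15% without the first library.

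**Figure D4:**
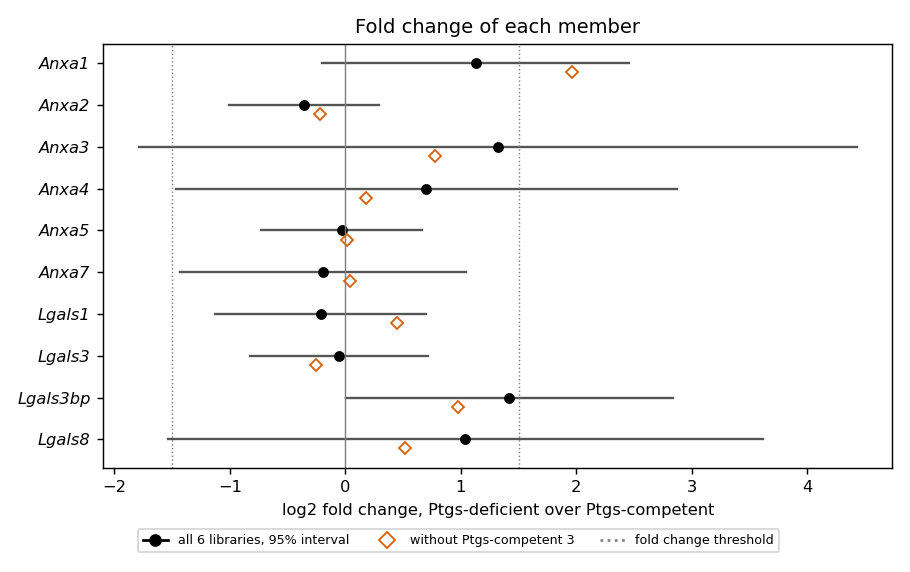
Log2 fold change of each member, Ptgs-deficient over Ptgs-competent. Black points with 95% intervals are from all 6 libraries, open diamonds leave out the third Ptgs-competent library, and dotted lines mark the fold change threshold of 1.5. The interval of Lgals3bp begins at 0.0055 and those of the other 9 members include 0.

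Among the 12 remaining annexins and galectins with a row of counts, 5 passed the filter, of which 3 had a higher and 2 a lower fitted level in Ptgs-deficient TAMs. Their median log2 fold change was 0.039 and none was called. Anxa6, an annexin of endosomes, was read at 83.2, 156 and 91.6 CPM against 95.2, 151 and 92.9 CPM (log2 fold change 0.04). Lgals9, which encodes the TIM-3 ligand galectin-9, was at 74.1, 46.1 and 59.9 CPM against 46.0, 132 and 70.6 CPM (log2 fold change 0.46, and -0.04 without the second Ptgs-deficient library). Both overlapped between the groups. By CPM, the epithelial genes Anxa8 and Lgals7 were lower in every Ptgs-deficient library, an order that 8.01% of all genes tested showed. Anxa8 had 90, 138 and 106 counts against 0, 25 and 0, with an unadjusted p of 0.143 in edgeR's test. Lgals7 had 44, 70 and 98 counts against 0, 47 and 0, with an unadjusted p of 0.326 in that test. Its raw counts overlapped, and only on scaling did the groups part, at 7.01, 11.5 and 21.1 CPM against 0, 5.60 and 0 CPM. The tumor and fibroblast marker sums were likewise higher in each Ptgs-competent library, and their part in these counts was not tested. Anxa9 was uneven in both groups, at 93, 0 and 0 counts against 3, 95 and 20, and the galectin-related Lgalsl, with 38, 0 and 0 counts against 0, 40 and 0, was not tested. Anxa10, Anxa11, Anxa13, Lgals2 and Lgals12 were at 0 in every library, which allows levels of at most 0.357 to 0.647 CPM depending on the library, and Lgals4 had at most 3 counts.

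Of 74 listed genes that act with annexins or galectins, 58 were tested and 1 was called, beside 0.216% of all genes tested. Of these 38 had a higher and 20 a lower fitted level in Ptgs-deficient TAMs. The median log2 fold change was 0.29, and 13 of the 58 had an unadjusted p under 0.05, beside 8.83% of all genes tested. On leaving out a library, that number ran from 8, without the third Ptgs-deficient one, to 16, without the second Ptgs-competent one. The lists were chosen with earlier results of these data known, which limits what such shares can show. By range, 13 were higher in every Ptgs-deficient library, beside 11% of all genes tested, and 4 were lower in every one, beside 8.01%.

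The called gene was Fn1, which encodes fibronectin, an extracellular matrix glycoprotein that galectins bind. It rose from 166, 122 and 86.7 CPM in Ptgs-competent to 722, 609 and 604 CPM in Ptgs-deficient libraries, a log2 fold change of 2.37 (SE 0.356, adjusted p = 0.0350 in edgeR's test). The groups were far apart beside their spread, and the log2 fold change stayed between 2.21 and 2.63 on leaving out any library. Its adjusted p then passed 0.05, to between 0.0568 and 0.205, for each library other than the third Ptgs-competent one, so that the call was lost. Among the other 14 galectin ligands and receptors tested, Itgam, the integrin subunit CD11b used in the sort, was at 603, 504 and 309 CPM against 892, 1150 and 1115 CPM (log2 fold change 1.16, adjusted p = 0.261). The mannose receptor gene Mrc1 was at 512, 516 and 238 CPM against 888, 811 and 820 CPM. The lysosomal membrane proteins Lamp2 and Lamp1, whose sugar chains galectins bind, had log2 fold changes of 0.83 and 0.72. None of these last 4 was called, although their groups did not overlap. Cd44 went the other way, at 269, 312 and 521 CPM against 218, 225 and 191 CPM, again without overlap. Its log2 fold change was -0.80 (adjusted p = 0.571 in edgeR's test), and -0.41 without the third Ptgs-competent library. By range, 5 genes of this list were higher and 1 was lower in every Ptgs-deficient library, beside 11% and 8.01% of all genes tested. Of the 15 in all, 12 had a higher fitted level in Ptgs-deficient TAMs, where the summed level of macrophage identity markers, a list that shares genes with this one, was also higher.

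Of 12 annexin partners 11 were tested, 7 had a higher and 4 a lower fitted level, and none was called. S100a6, a calcium-binding protein that binds annexins, was at 2025, 1842 and 4612 CPM in Ptgs-competent and at 1173, 1233 and 1068 CPM in Ptgs-deficient libraries. It was lower in every Ptgs-deficient library, with a log2 fold change of -1.29 (SE 0.391, unadjusted p = 0.00798, adjusted p = 0.291 in edgeR's test). S100a4, of the same calcium-binding family, was at 2057, 2544 and 6439 CPM against 1573, 1985 and 1429 CPM, again without overlap (log2 fold change -1.15, adjusted p = 0.406). Both were highest in the third Ptgs-competent library, as was Lgals1, and without it their log2 fold changes were -0.69 for S100a6 and -0.42 for S100a4. The Ptgs-competent mean of S100a4 was 3680 CPM with that library and 2300.5 CPM without it. Ahnak, the giant scaffold protein that binds the complex of annexin A2 and S100A10, went the other way, at 919, 780 and 1495 CPM against 1875, 1789 and 2112 CPM (log2 fold change 0.85, adjusted p = 0.403). Chmp4b, a membrane repair subunit, had a log2 fold change of 0.82 with overlapping groups. S100a10 itself had a log2 fold change of 0.04.

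The receptors of annexin A1 were scarce. Fpr1 was at 18.6, 1.31 and 57.6 CPM against 19.9, 15.4 and 14.5 CPM and Fpr2 at 31.2, 14.8 and 0 CPM against 57.8, 15.4 and 6.41 CPM, so that both overlapped between the groups. The log2 fold change of Fpr1 was -0.64 with all libraries and 0.76 without the third Ptgs-competent one. The other 3 of the 5 formyl peptide receptor genes listed were at 0 throughout. Of 8 glucocorticoid response genes 6 were tested, 3 with a higher and 3 with a lower fitted level, and none was called. Dusp1, a phosphatase gene that glucocorticoids and many other signals induce, was at 1662, 1629 and 970 CPM against 2342, 2267 and 2616 CPM (log2 fold change 0.76, adjusted p = 0.472 in edgeR's test), with no overlap. Per1, Tsc22d3 and the glucocorticoid receptor gene Nr3c1 had log2 fold changes of 1.06, 0.45 and -0.57 with overlapping groups.

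Of 10 genes that build or trim galectin-binding sugar chains, 8 were tested, 6 with a higher fitted level and none called. St6gal1 encodes the sialyltransferase that caps sugar chains with sialic acid, which blocks galectin-1 binding. It was at 23.6, 1.64 and 14.4 CPM against 73.9, 103 and 127 CPM, without overlap (log2 fold change 2.94, SE 0.968, adjusted p = 0.331 in edgeR's test), and leaving out a library gave from 2.41 to 3.67. Gcnt1 and Mgat4b, which encode branching enzymes, had log2 fold changes of -0.81 and 0.29 with overlapping groups, and leaving out a library gave from -1.46 to -0.38 for Gcnt1 and from -0.04 to 0.64 for Mgat4b. Mgat4a, another such gene, was at 17.5, 0 and 0 CPM against 7.85, 12.5 and 49.0 CPM, so that its overlap came from the first Ptgs-competent library. In the list of 12 genes of the galectin-8 and galectin-3 response to damaged vesicles, 8 were tested, 5 with a higher fitted level and none called. Ubxn6, a cofactor of the segregase p97, was lower in every Ptgs-deficient library (137, 71.1 and 75.9 CPM against 26.6, 49.9 and 28.6 CPM; log2 fold change -1.43, adjusted p = 0.594). The kinase gene Tbk1 was at 4.14, 0 and 0 CPM against 8.94, 37.2 and 27.1 CPM. The autophagy genes Tax1bp1 and Gabarap had log2 fold changes of -0.85 and 0.44 with overlapping groups. Leaving out a library gave from -1.45 to -0.52 for Tax1bp1 and from 0.29 to 0.72 for Gabarap.

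Phosphatidylserine recognition, the function that annexin A5 shares with receptors for dying cells, held the 2 smallest p-values after Fn1 among these lists. Of 12 genes listed, Anxa5 among them, 9 were tested, 4 with a higher and 5 with a lower fitted level, and none was called. Gas6, a ligand that bridges dying cells to the receptor kinases Axl and Mertk, was at 439, 830 and 311 CPM in Ptgs-competent and at 1233, 2129 and 1755 CPM in Ptgs-deficient libraries (log2 fold change 1.69, SE 0.412, adjusted p = 0.166 in edgeR's test). Timd4, a phosphatidylserine receptor of resident macrophages, had 0 counts in all Ptgs-competent libraries and 253, 346 and 80 counts in Ptgs-deficient ones. With each Ptgs-competent library set to a floor of 3 counts, the ratio of its group means was at least 64.3-fold. That bound leaves out the spread of the Ptgs-deficient libraries, which were at 46.2, 41.2 and 16.6 CPM. Its adjusted p was 0.208 in the same edgeR test. Pros1, another such ligand, was at 26.8, 0 and 0.647 CPM against 77.7, 168 and 113 CPM (adjusted p = 0.515). These 3 genes did not overlap between the groups, whereas Cd300a, an inhibitory receptor, did, with 18.6, 103 and 12.3 CPM against 51.3, 213 and 179 CPM. Its log2 fold change was 1.73 with all libraries and 3.25 without the second Ptgs-competent one (adjusted p = 0.249 there in edgeR's test). The summed level of 11 tissue-resident macrophage markers was 693, 891 and 354 CPM in Ptgs-competent and 2063, 2365 and 2314 CPM in Ptgs-deficient libraries, and its part in these values was not tested.

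**Figure D5:**
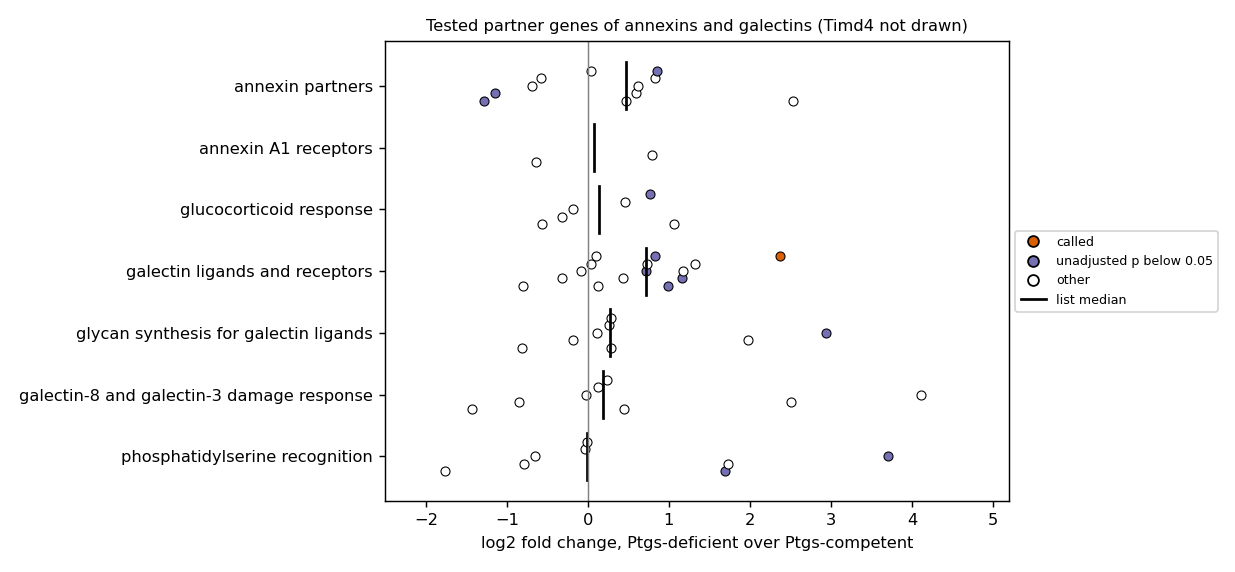
Log2 fold change, Ptgs-deficient over Ptgs-competent, of the tested genes in 7 partner lists, each point a gene and each bar the list median. Timd4, at 0 in all Ptgs-competent libraries, is counted in its median but not drawn, and Anxa5 is drawn in the phosphatidylserine list. Fn1, at 2.37, is the called gene.

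The genes most like Anxa1 and Lgals3bp in their pattern were sought over the 6 libraries by the root mean square difference of log2 CPM, after each gene was centred on its mean. For Lgals3bp they were Pld3, a lysosomal exonuclease gene (0.172), Xbp1, which encodes a transcription factor of the secretory pathway (0.215), and the gene model Gm12005 (0.309). Xbp1 was at 78.3, 73.7 and 13.4 CPM in Ptgs-competent and at 94.7, 147 and 160 CPM in Ptgs-deficient libraries, low where Lgals3bp was low. For Anxa1 they were Rpl22-ps1 (0.282), Edem1, which encodes a factor of endoplasmic reticulum quality control (0.289), and Snrnp25, which encodes a spliceosome subunit (0.340). Edem1 was at 30.4, 36.8 and 130 CPM against 50.4, 131 and 109 CPM, and like Anxa1 it was raised in the third Ptgs-competent library. Rpl22-ps1, a pseudogene, reached at most 7.26 CPM.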

How the data were processed

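RNA from sorted TAMs was made into 6 libraries with a Lexogen QuantSeq 3′ kit (forward). Per the study's methods, the authors trimmed reads with BBDUK, fqtrim and cutadapt, aligned them with STAR to GRCm38 and counted reads per gene with featureCounts. The submitters' processing notes also list bcl2fastq and edgeR. Versions, strand setting and the handling of multimapping reads are not given in the sources used here. The deposited table holds raw counts per gene, and 0 of its sample columns were left unused. Because a 3′ read stands for about a transcript, no correction for length was made.

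Counts were tested with edgeR 4.0.16 in R 4.3.3 (TMM factors, filterByExpr with a minimum count of 10 and a minimum total of 15, quasi-likelihood test, Benjamini-Hochberg adjustment over 8793 genes). Calls required an adjusted p no higher than 0.05 and an absolute log2 fold change of at least 1.5. Levels are TMM-scaled CPM. Ratios were compared by exact two-sided permutation tests. The steps were run on simulated data, at the spread of these data and at a smaller spread. Only the smaller spread carried a requirement on genes recovered, so power at the spread of these data is not given here. Each library is a pool of tumors, so p-values measure the spread between pools.

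The members and gene lists were chosen with earlier results of these data known. Named with values were all members, other annexins and galectins with at least 10 counts in some library, in each partner list the called genes and up to 4 with the smallest p, and the 3 genes nearest in pattern to the annexin and the galectin member of smallest p. S100a10 was added for its ratio with Anxa2, and Cd44 because it went the other way from the genes named in its list. Of the annexins and galectins listed, Lgals6 was not analysed here. Alternatives were DESeq2 1.42.0, limma 3.58.1 with voom and sample weights, edgeR's likelihood ratio and robust fits, other scalings and filters, a replicate block and leaving out each library. Sequences are from RefSeq. The 95% intervals of fold changes include the spread between libraries, and floors of 3 counts cover counting error only.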

Additional observations from a re-analysis of the deposited data

How the results depend on the processing

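No member was called under the main settings or any of the 15 alternatives, and 140 of 150 member values kept their direction. The lowest adjusted p of any member was 0.0686, for Lgals3bp, whose log2 fold change ran from 0.97 to 1.88. The number of genes called moved from 19 to 328 with DESeq2, 241 with edgeR's likelihood ratio test, 123 with limma voom and sample weights and 252 with no filter on low counts. Leaving out a library gave from 0 to 25 calls; with 0, on leaving out the first Ptgs-competent library, 1231 genes had an unadjusted p under 0.05 in edgeR's quasi-likelihood test. Without the second Ptgs-competent library there were 11 calls, and 2, 4 and 3 when Ptgs-deficient library 1, 2 or 3 was left out. Called partner genes numbered 3 with DESeq2 and with the likelihood ratio test (Fn1, Gas6 and Timd4), 2 with voom (Fn1 and Gas6), 4 with no filter (Fn1, Gas6, Timd4 and Pros1) and from 0 to 1 on leaving out a library. The median coefficient of variation of the members, with libraries left out after seeing the data, ran from 16.3% to 69.6% in Ptgs-competent and from 9.15% to 28.6% in Ptgs-deficient TAMs. Log2 fold changes on leaving out a library ran from 0.62 to 1.96 for Anxa1 and from 0.77 to 3.37 for Anxa3. On leaving out a library, 38 of the 58 partner genes and 2 of the 5 other annexins and galectins tested kept their direction in every fit. Directions turned for Anxa5 (0.018 with voom, from -0.19 to 0.14 on leaving out a library), Anxa7 (from -0.49 to 0.038), Lgals1 (0.10 with voom, from -0.46 to 0.45) and Lgals3 (from -0.25 to 0.21). The difference in the log2 ratio of Lgals1 to Lgals3 ran from -0.51 to 0.69. The voom fit moved the median of all genes to 0.39, and the cause of these shifts was not tested. Samples with the same replicate number did not deviate together (correlations of -0.049, -0.022 and -0.022), so the numbers were not taken as pairs; with the replicate block 77 genes and 2 partner genes were called and no member, and the median of all genes was 0.26. The common biological coefficient of variation over all genes was 1.26, with 3 libraries per group.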
